A study of Homo sapiens with 40 samples.

Results

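The RAB genes described here are the protein-coding genes whose symbol is RAB followed by a number and at most one letter and one digit. Of 19962 rows in the count table, 63 were such genes, and the 42 with a mean of at least 10 counts per library over 40 libraries are the members. All 42 were among the 11428 genes tested. By the site where each protein mainly works, 10 members belong to the ER and Golgi, 6 to early endosomes, 6 to recycling endosomes, 7 to late endosomes, lysosomes and autophagy, 9 to exocytosis, and 4 to cilia or other sites. The question was whether other RAB genes moved where RAB6A fell.

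RAB proteins are small GTPases that mark membranes. Bound to GTP, each sits on a certain organelle and recruits effectors such as motors, tethers and coat adaptors. Guanine nucleotide exchange factors (GEFs) load the GTP, GTPase-activating proteins (GAPs) end the active state, and a lipid tail added by RAB geranylgeranyl transferase anchors the protein in the membrane. RAB6A is a RAB of the Golgi. It acts in transport from endosomes and the Golgi back to the ER and in the release of exocytic carriers, in part through BICD2, an adaptor that links RAB6 vesicles to dynein.

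The cells were RKO, a human colorectal carcinoma line, and each of the 10 groups had 4 libraries. Every line carried Cas9 under doxycycline control, GFP, and a lentiviral vector with 2 guide RNAs and a blue fluorescent protein, and lines were sorted for that protein as pools. The guides were aimed at AAVS1, a non-coding control locus (sgAAVS1), at IGF2BP2 (sgIGF2BP2) or at IGF2BP3 (sgIGF2BP3). IGF2BP2 and IGF2BP3 are RNA-binding proteins of one family that attach to mRNAs. Each line was given DMSO or 250 ng/mL doxycycline (Dox) for 72 h. The sgIGF2BP2 line, without Dox, was also transfected for 48 h with 75 nM of an siRNA pool against IGF2BP2 (siIGF2BP2) or of a non-targeting siRNA (siControl), and the sgIGF2BP3 line with an siRNA pool against IGF2BP3 (siIGF2BP3) or with siControl. All groups received 4-thiouridine (250 µM, 2 h). The table gives one count per gene and library, so labelled and unlabelled RNA were not separated. The labels give quadruplicates, 1 well per condition, and do not say whether these were separate cultures, so p-values measure the spread between these libraries, which may be technical.

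Library totals ran from 10018181 to 24822807 counts (median 13468792), and the 42 RAB genes took 0.286 to 0.308% of them. IGF2BP2 went from 85.3 to 33.9 CPM (counts scaled to a fixed library size) with Dox in sgIGF2BP2 and from 108 to 30.2 CPM after siIGF2BP2. IGF2BP3 went from 180 to 56.2 CPM with Dox in sgIGF2BP3 and from 170 to 24.7 CPM after siIGF2BP3. With Dox in sgIGF2BP2, IGF2BP3 also went from 179 to 151 CPM (log2 change -0.25, edgeR adjusted p = 2.93e-06). IGF2BP2 was higher in siControl than with DMSO, by 0.34 in sgIGF2BP2 and 0.28 in sgIGF2BP3 on the log2 scale. In the sgAAVS1 line, Dox took SPOP, a gene on chromosome 17 that no label names, from 36.7 to 11.4 CPM, and 130 of the 250 tested genes beyond SPOP on that chromosome were called lower. The epithelial markers EPCAM, KRT8, KRT18 and CDX2 were present in all libraries, while KRT19, CDH1 and VIL1 had at most 4 counts in any. The leukocyte and endothelial markers looked at had at most 4 counts, COL1A2 and DCN had 0, COL1A1 had up to 11, and VIM, a mesenchymal marker that many cultured lines express, lay between 26.1 and 38.9 CPM.

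RAB6A lies on the minus strand of chromosome 11 (chr11:73675638-73761137, GRCh38, GENCODE 29). It has 2 coding variants that use one or the other of a pair of alternative exons, and 3 relatives: RAB6B, and the single-exon genes RAB6C and RAB6D. The stretches below show how well counts can separate these sequences. They are coding bases 184 to 243, part of the GTP-binding fold, from the GENCODE 29 transcripts, 5′ to 3′, and capitals mark bases that differ from RAB6A-201. They lie at chr11:73718831-73718890 (minus strand) for RAB6A-201, chr11:73718659-73718718 (minus) for RAB6A-202, chr3:133841331-133841390 (minus) for RAB6B-201, chr2:129980299-129980358 (plus) for RAB6C-201 and chr2:131363478-131363537 (minus) for RAB6D-201.
RAB6A-201: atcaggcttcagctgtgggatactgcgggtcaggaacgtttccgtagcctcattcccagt
RAB6A-202: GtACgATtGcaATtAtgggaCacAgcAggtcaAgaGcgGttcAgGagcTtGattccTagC
RAB6B-201: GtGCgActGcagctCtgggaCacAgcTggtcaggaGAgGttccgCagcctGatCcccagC
RAB6C-201: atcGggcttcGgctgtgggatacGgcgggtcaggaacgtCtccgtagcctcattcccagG
RAB6D-201: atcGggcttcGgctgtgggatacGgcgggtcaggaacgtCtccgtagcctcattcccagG
Within these 60 bases RAB6A-202 differs from RAB6A-201 at 21, RAB6B at 16, and RAB6C and RAB6D at 5 each. Over the 627 coding bases RAB6B is 77.8% identical to RAB6A-201, RAB6C 96.2% and RAB6D 96.3%. RAB6A-202 is 95.1% identical, with all 31 differences between coding bases 184 and 279. Of the 3290 windows of 100 bases in RAB6A-201, none occurs in RAB6B, 3.47% occur in RAB6C and 1.85% in RAB6D, against 84.8% in RAB6A-202. Windows of this length keep RAB6A apart from RAB6B and are shared in small part with RAB6C and RAB6D. How reads from shared stretches were counted is not given in the sources used here. Counts per gene cannot separate the 2 coding variants of RAB6A.

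RAB6A stayed near one level in 9 groups and stood far lower in the tenth. Its 4 siIGF2BP3 libraries had 37.0, 31.4, 30.9 and 34.3 CPM, against 80.0, 85.6, 80.9 and 91.7 CPM in siControl libraries of the same line. The groups did not overlap, and no library of the other 9 groups was below 78.3 CPM. The mean was 33.4 ± 2.82 CPM (SD, n = 4) after siIGF2BP3, 39.5% of the 84.6 ± 5.38 CPM in siControl (SD, n = 4). The log2 change was -1.34 (SE 0.050), the 4th most negative of the 11428 genes. Since RAB6A was chosen with this result known, the value is a description and no test is given. In bulk RNA, fewer cells with the transcript and less of it per cell cannot be told apart.

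**Figure D1:**
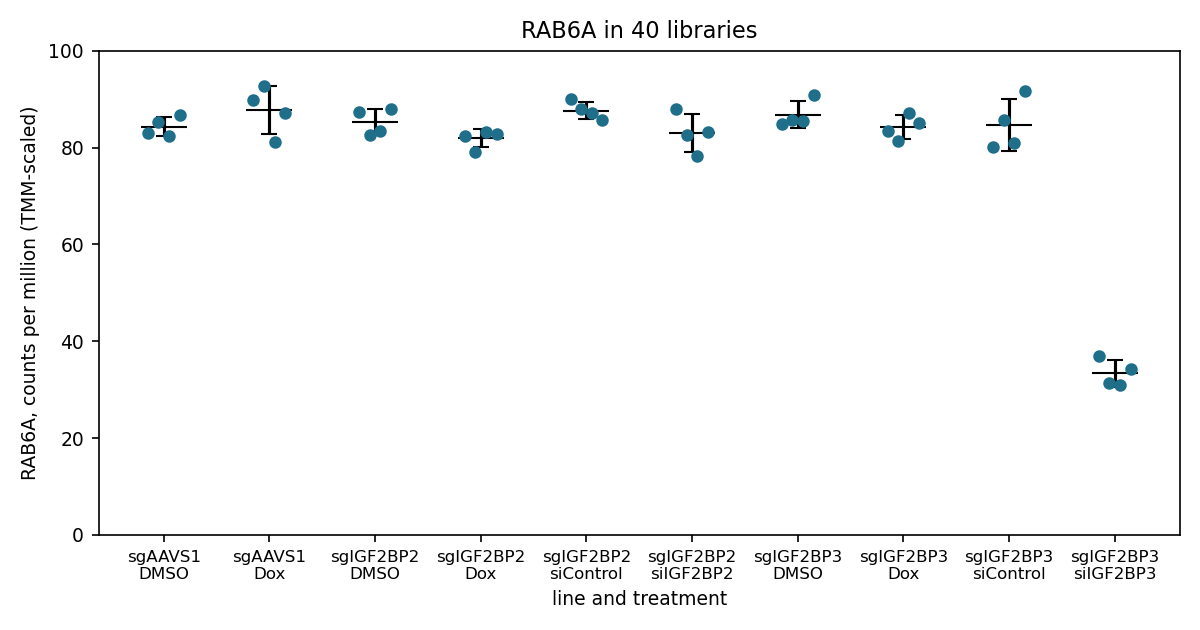
RAB6A in CPM (library sizes scaled by TMM) in each of the 40 libraries, by line and treatment; horizontal lines are group means and bars are SDs of 4 libraries. The 4 siIGF2BP3 libraries sit between 30.9 and 37.0 CPM, and the means of the other 9 groups between 81.9 and 87.8 CPM.

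In the same line, 72 h of Dox left RAB6A at 83.4, 81.4, 87.1 and 85.1 CPM, against 85.0, 85.7, 85.5 and 90.9 CPM with DMSO. These groups overlapped, and the log2 change was -0.042 (95% interval -0.13 to 0.045). The 2 treatments differed by -1.30 (SE 0.067) on the log2 scale for RAB6A, a comparison added after seeing the data and likewise given without a test. IGF2BP3 mRNA itself ended lower after the siRNA than after Dox (24.7 against 56.2 CPM). The depletion methods also differed in duration (48 h against 72 h) and in agent. These differences between the treatments cannot be told apart in this design. None of the other 41 members was called in that comparison, where 1.36% of all genes were (0.473% higher and 0.884% lower).

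The other effects left RAB6A within a narrow range. Its log2 change was 0.058 with Dox in sgAAVS1, -0.060 with Dox in sgIGF2BP2 and -0.080 after siIGF2BP2. None of their 95% intervals reached beyond -0.17 or 0.14. The non-targeting siRNA, against DMSO, gave 0.041 in sgIGF2BP2 and -0.034 in sgIGF2BP3. The difference of the siIGF2BP3 and siIGF2BP2 effects was -1.26 (SE 0.067).

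The RAB6 relatives gave little or no signal. RAB6B, a RAB6 form best known from neurons, had 0 counts in all 40 libraries. A count of 0 allows up to 3 counts, which is 0.122 to 0.301 CPM depending on the library and covers counting error only. RAB6C had 32 counts over all libraries, at most 7 in one, with 3 in the siControl and 2 in the siIGF2BP3 libraries of the sgIGF2BP3 line. RAB6D had 33 counts, with 4 and 4 in those groups. RAB6A had 44916 counts, so whether RAB6B rose or fell was not detectable at this depth, and RAB6C and RAB6D were too sparse for a fold change.

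The RAB genes spanned a wide range of levels. Per kilobase of exon, RAB1B, which acts between ER and Golgi, was highest at 206 CPM per kb over all 40 libraries. RAB7A, the late endosome RAB, had 132 CPM per kb, RAB11B, of recycling endosomes, 68.6, RAB1A 49.95 and RAB14, which acts between endosomes and the Golgi, 39.8. The lines in the plot of levels, from lowest to highest group mean, did not overlap among these 5. RAB6A was 12th, with 16.3 CPM per kb, and its neighbour RAB13 (16.1 CPM per kb) lay within its spread. RAB30 was lowest, with 0.135 CPM per kb and a mean count of 22.4, followed by RAB9B (mean count 24.3) and RAB3A (30.7), the members nearest the minimum. Just below it lay RAB4B with a mean count of 7.18 and RAB44 with 5.08. Of the 21 RAB genes that were not members, 6 had no count in any library (RAB6B, RAB3C, RAB31, RAB32, RAB39A and RAB41) and 10 had a mean under 1.

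**Figure D2:**
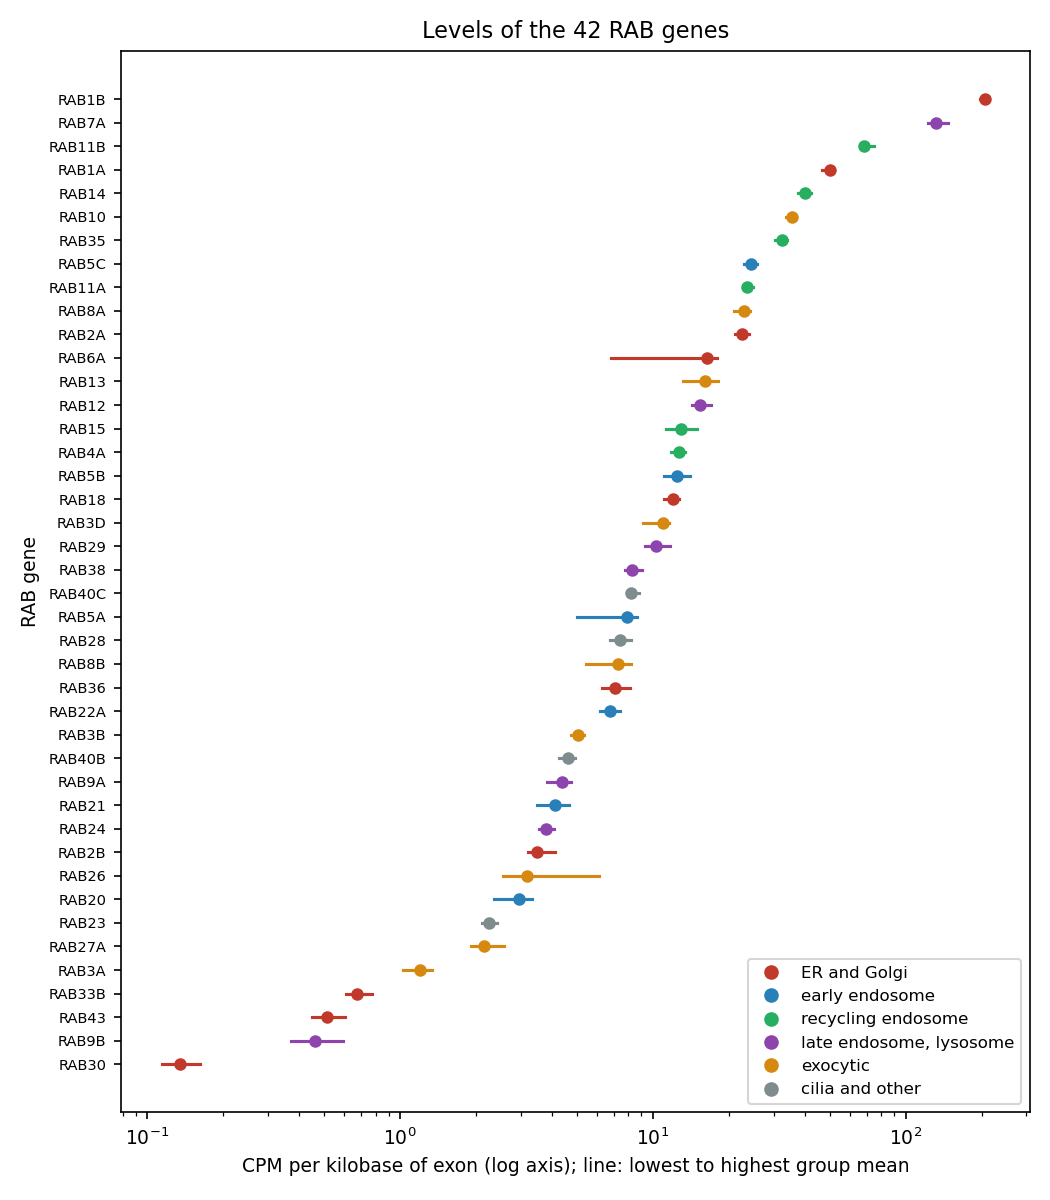
Level of each of the 42 RAB genes in CPM per kilobase of exon on a log axis; points are means over 40 libraries, coloured by site of action, and lines run from the lowest to the highest group mean. RAB1B is highest (206) and RAB30 lowest (0.135), and the lines of RAB6A and RAB26 are the widest.

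Most members varied little between groups. The ratio of the highest to the lowest group mean had a median of 1.2 over the 42 members, and 37 of them stayed under 1.5. The other 5 were RAB6A (2.63), RAB26 (2.39), RAB5A (1.72), RAB9B (1.60) and RAB8B (1.5). RAB6A was lowest after siIGF2BP3, RAB5A and RAB8B were lowest after siIGF2BP2, and RAB26 was highest after siIGF2BP2. RAB9B, an endosome-to-Golgi RAB near the count minimum, had group means of 1.39 to 2.22 CPM and was called in none of the 5 effects.

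After siIGF2BP3, none of the 41 members other than RAB6A was called, in edgeR or in DESeq2, where 2.34% of all genes tested were called (0.936% higher and 1.40% lower, at an adjusted p under 0.05 in edgeR's quasi-likelihood test). RAB6A, which passed the threshold, was chosen with its fall known and is not counted as a result. Their log2 changes ran from -0.16 to 0.23 with a median of 0.0087, beside 0.0015 over all genes tested. For 24 of the 41 the 95% interval lay within 0.2 of zero on either side. Without adjustment 8 of the 41 had a p under 0.05 in edgeR, beside 13.8% of all genes. A missed threshold does not show that these genes were unchanged.

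Those 8 differences were small. RAB1A, the ER-to-Golgi RAB, had 157, 152, 149 and 158 CPM after siIGF2BP3 and 159, 164, 167 and 177 CPM in siControl. The 2 groups did not overlap, at a log2 change of -0.12 (SE 0.037, edgeR adjusted p = 0.0860). RAB13, a RAB of tight junctions, had 42.8, 41.2, 47.4 and 39.7 CPM against 34.4, 36.1, 29.6 and 44.7 CPM. These groups overlapped, because siControl library 4 was above 3 of the 4 siIGF2BP3 libraries, and the log2 change was 0.23 (SE 0.083, edgeR adjusted p = 0.138). When only the compared groups entered the fit, RAB1A and RAB13 were called beside RAB6A. RAB13 was also called without a filter on low counts and without siControl library 4. RAB1A shares 757 exon bases with CEP68 on the opposite strand, and RAB13 shares 682 with AL358472.6 on the same strand. How reads from these bases were counted is not given in the sources used here. The remaining genes of the 8 were RAB5A (-0.16), RAB5C (-0.12), RAB3D (-0.11), RAB35 (-0.11), RAB10 (-0.099) and RAB29 (0.11), with no call under any alternative tried. Of these, RAB10 was lower in all 4 siIGF2BP3 libraries than in all 4 controls (120.3 to 124 against 126 to 137 CPM), and RAB29 was higher in all 4 (43.3 to 44.7 against 39.1 to 42.9 CPM). Over all 42 members, 5 were lower without overlap, RAB6A among them, and 1 was higher. The share of all genes without overlap was not computed, so these counts are descriptions.

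Summed over the 42 members, RAB mRNA was 3009 ± 20.6 CPM in siControl and 2895 ± 21.4 CPM after siIGF2BP3 (SD, n = 4 each). Without RAB6A the sums were 2924 ± 16.4 and 2862 ± 19.5 CPM. Both lay within the range of the other groups, from 2819 CPM (sgIGF2BP2 Dox) to 2926 CPM (sgAAVS1 Dox). RAB6A made up 2.80 to 2.93% of the sum in 9 groups and 1.15% after siIGF2BP3. The RAB1 pair summed to 582 ± 14.1 CPM in siControl and 552 ± 4.77 CPM after siIGF2BP3, and the RAB2 pair to 138 ± 2.71 and 131 ± 1.42 CPM (SD, n = 4 each). Both sums were lower in all 4 siIGF2BP3 libraries than in any control. The sums of the other 6 families with at least 2 members overlapped, 3 lower and 3 higher (RAB8 at 103.1%, RAB9 at 103.0% and RAB40 at 102.3% of siControl). The RAB2 sum was also without overlap with Dox in sgIGF2BP3 (91.1% of DMSO) and, higher, with Dox in sgAAVS1 (109.5%). Each of the 5 effects had 1 to 3 of the 8 family sums without overlap.

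**Figure D3:**
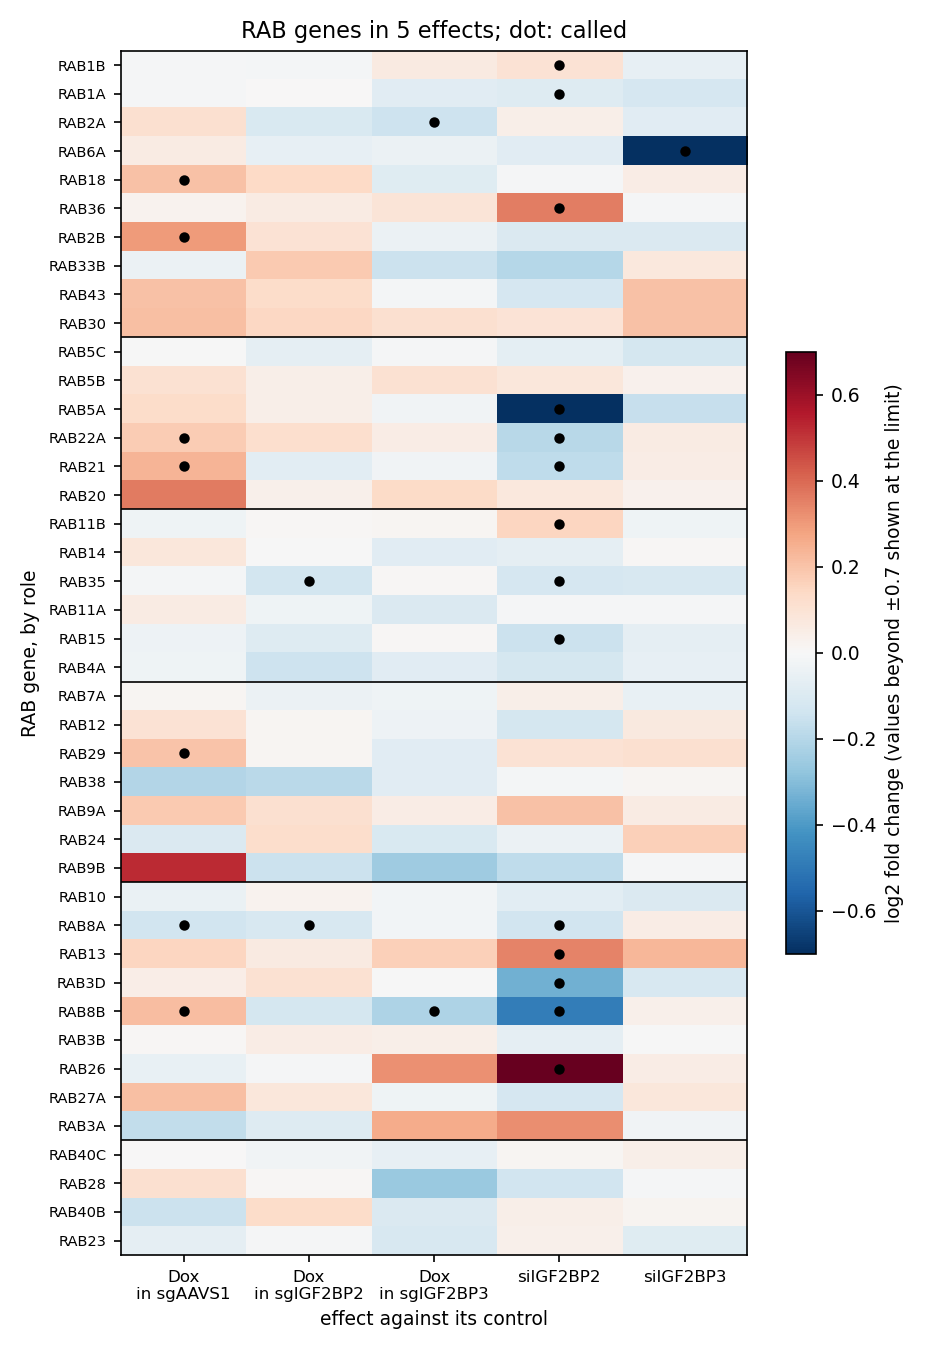
Log2 fold change of each of the 42 RAB genes (rows, grouped by site of action, highest level first within a group) in 5 effects against their controls; dots mark calls at adjusted p under 0.05, and colours stop at ±0.7. The siIGF2BP3 column has 1 dot, at RAB6A, and the siIGF2BP2 column has 14.

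After siIGF2BP2, 14 of 42 members were called, 5 higher and 9 lower, beside 36.8% of all genes called and 18.4% in each direction. The share of members, 33.3%, was near that of all genes. RAB5A and RAB8B fell most and RAB26 rose most. The median log2 change of the members was -0.062, against 0.011 for all genes tested. By site, 3 of 6 early endosome RABs fell and none rose, 3 of 9 exocytic RABs fell and 2 rose, and none of the 7 late endosome, lysosome and autophagy RABs was called.

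RAB5A, which controls fusion of early endosomes, fell most. It had 29.1, 30.9, 34.3 and 28.9 CPM in siControl and 18.9, 19.7, 18.7 and 18.7 CPM after siIGF2BP2. Every treated library was below every control library, at a log2 change of -0.70 (SE 0.069, edgeR adjusted p = 3.79e-13). The other 2 genes of the RAB5 family were not called: RAB5B was at 0.080 (adjusted p = 0.156) and RAB5C at -0.070 (edgeR adjusted p = 0.273). The RAB5 sum was 186 ± 5.08 CPM in siControl and 176 ± 3.34 CPM after siIGF2BP2, and the libraries overlapped. In siIGF2BP3 libraries RAB5A had 28.3, 27.8, 28.1 and 27.7 CPM against 28.1, 31.2, 31.0 and 34.4 CPM in their siControl, and the 2 siRNA effects on RAB5A differed by 0.53 (SE 0.095, edgeR adjusted p = 1.65e-05). RAB5A shares exon bases with PP2D1 on the opposite strand, and the strand setting of the counts is not given in the sources used here.

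The early endosome RABs RAB22A and RAB21 also fell. RAB22A had 65.8, 68.2, 64.6 and 64.3 CPM in siControl and 59.6, 53.8, 59.0 and 57.9 CPM after siIGF2BP2, with no overlap (log2 change -0.19, SE 0.051, edgeR adjusted p = 0.00176). RAB21, which carries integrins into the cell, went from 63.4 ± 3.18 to 55.9 ± 1.92 CPM (SD, n = 4 each), again with no overlap and a log2 change of -0.18 (edgeR adjusted p = 0.00379).

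Among exocytic RABs the fall was clearest in RAB8B, which delivers vesicles to the plasma membrane and the base of cilia. RAB8B had 40.05, 38.7, 41.8 and 38.7 CPM in siControl and 28.05, 29.95, 26.1 and 29.4 CPM after siIGF2BP2. The groups did not overlap, at -0.49 on the log2 scale (SE 0.061, edgeR adjusted p = 9.62e-10). RAB8A, its close relative, fell by 0.13 on the log2 scale (SE 0.040, edgeR adjusted p = 0.00611), from 119 ± 5.59 to 109 ± 4.30 CPM (SD, n = 4 each), and its groups overlapped. The RAB8 sum after siIGF2BP2 was 86.3% of that in siControl, without overlap. RAB3D, of secretory granules, had 51.6, 47.5, 54.0 and 51.2 CPM in siControl and 41.6, 39.4, 40.9 and 40.2 CPM after siIGF2BP2. It fell by 0.33 on the log2 scale (edgeR adjusted p = 3.06e-07), and the sum of RAB3A, RAB3B and RAB3D was 89.1% of siControl, also without overlap. Of the 8 family sums, RAB9 was the other without overlap, at 111.3% of siControl, and 5 overlapped.

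RAB26 and RAB13 rose in the same exocytic set. RAB26, found on secretory granules and synaptic vesicles, had 7.60, 5.51, 6.83 and 8.51 CPM in siControl and 13.9, 14.4, 16.4 and 16.0 CPM after siIGF2BP2. All treated libraries lay above all controls, at a log2 change of 1.10 (SE 0.10, edgeR adjusted p = 2.40e-14), the greatest rise of the 42. In siIGF2BP3 libraries RAB26 stayed at 7.63, 7.93, 6.48 and 6.31 CPM against 7.23, 6.80, 6.84 and 6.74 CPM in siControl. RAB13 rose by 0.35 on the log2 scale after siIGF2BP2 (edgeR adjusted p = 3.10e-04), although its siControl libraries were spread from 32.4 to 46.3 CPM and overlapped the treated ones.

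The remaining calls after siIGF2BP2 were in Golgi and recycling RABs. RAB36 rose by 0.36 (edgeR adjusted p = 1.09e-05), from 25.8 ± 0.55 to 33.2 ± 3.11 CPM (SD, n = 4 each), with no overlap. RAB11B rose by 0.15 with overlapping libraries, while its recycling endosome partner RAB11A was at -0.0057 (adjusted p = 0.937 in edgeR). RAB1B and RAB1A, which do the same work between ER and Golgi, were called in opposite directions, at 0.10 and -0.093, and their sum overlapped between groups (567 ± 9.09 and 585 ± 20.7 CPM). RAB15 (-0.15) and RAB35 (-0.12), of recycling endosomes, fell. The calls of RAB1A, RAB1B, RAB15 and RAB35 were each lost when at least 1 library was left out, RAB1A in 7 of 8 cases; the other 10 held under every alternative tried.

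**Figure D4:**
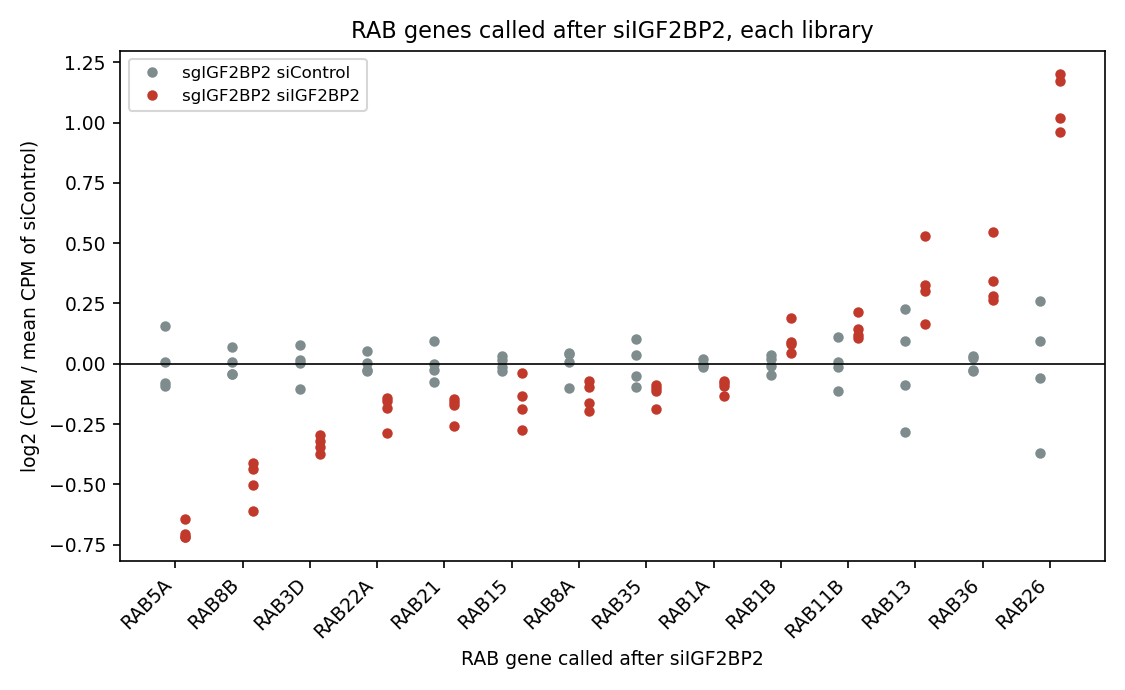
Log2 ratio of each library to the mean siControl CPM for the 14 RAB genes called after siIGF2BP2, ordered by fold change; grey points are siControl libraries and red points siIGF2BP2 libraries (4 each). RAB5A lies lowest and RAB26 highest, and the 2 groups overlap for RAB8A, RAB35, RAB11B and RAB13.

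The effects of the 2 siRNA pools differed for 11 of 42 members, 6 higher and 5 lower, beside 18.7% of all genes (9.88% higher and 8.82% lower). RAB6A was one, chosen with its value known. Relative to siIGF2BP2, siIGF2BP3 had the lower effect for RAB26 (-1.04, SE 0.16, edgeR adjusted p = 3.83e-07), RAB36 (-0.37), RAB11B (-0.18) and RAB1B (-0.16). It had the higher effect for RAB5A, for RAB8B (0.52, SE 0.085, edgeR adjusted p = 2.37e-06), RAB22A (0.25), RAB21 (0.23), RAB3D (0.22) and RAB8A (0.18). The pools were given to different lines, so line and siRNA cannot be told apart here. The calls of RAB11B, RAB1B, RAB21 and RAB3D were lost in at least 1 leave-one-out fit.

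Dox in the sgAAVS1 control line called 7 of 42 members, 6 higher and 1 lower, beside 15.9% of all genes (7.25% higher and 8.68% lower). RAB21 had 59.4, 60.3, 61.8 and 71.4 CPM with DMSO and 78.9, 73.2, 73.5 and 73.2 CPM with Dox. The groups did not overlap, and RAB21 rose by 0.24 on the log2 scale (SE 0.050, edgeR adjusted p = 3.43e-04). RAB18, which acts on the ER and lipid droplets, had 68.8, 68.5, 66.0 and 71.6 CPM with DMSO and 81.2, 79.7, 78.6 and 77.1 CPM with Dox. It also rose without overlap, by 0.20 (SE 0.053, edgeR adjusted p = 0.00452). RAB2B (0.30), RAB8B (0.22), RAB29 (0.20) and RAB22A (0.18) rose and RAB8A (-0.13) fell. All of these but RAB21 and RAB18 lost the call in some leave-one-out fits, and only 4 members were called without DMSO library 2. SPOP and distal chromosome 17 moved in the same libraries; their part in these values was not tested.

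With Dox in sgIGF2BP2, 2 of 42 members were called, both lower, beside 20.4% of all genes (10.0% higher and 10.4% lower). They were RAB35 (-0.13, edgeR adjusted p = 0.0254) and RAB8A (-0.11, edgeR adjusted p = 0.0344), and both pairs of groups overlapped. RAB35 had 117, 142, 139 and 131 CPM with DMSO and 121, 115, 132 and 119 CPM with Dox. Neither gene was called when only the compared groups were fitted, and none of the members was called without DMSO library 3. RAB5A and RAB26, the genes that moved most after siIGF2BP2, were at 0.040 (95% interval -0.084 to 0.16) and -0.0070 (95% interval -0.23 to 0.22) with Dox in this line. IGF2BP2 mRNA ended at 33.9 CPM after Dox, from 85.3 CPM with DMSO (log2 change -1.34). After the siRNA it ended at 30.2 CPM, from 108 CPM in siControl (log2 change -1.84). The difference between the Dox and siRNA effects on RAB5A and RAB26 was not tested.

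With Dox in sgIGF2BP3, 2 of 42 members were called, both lower, beside 2.64% of all genes (1.64% higher and 1.01% lower). RAB8B had 42.04, 42.9, 38.3 and 42.02 CPM with DMSO and 38.9, 36.5, 35.3 and 32.0 CPM with Dox. These overlapped in 1 library each, at -0.22 (SE 0.059, edgeR adjusted p = 0.0298). RAB2A, which acts between Golgi and ER, had 140, 136, 137 and 130 CPM with DMSO and 125, 123, 128 and 117 CPM with Dox. It fell by 0.14 (SE 0.042, edgeR adjusted p = 0.0416) without overlap. Without DMSO library 1, DMSO library 2 or Dox library 4, 0 members were called. RAB26, the gene with the greatest rise after siIGF2BP2, was at 0.32 here, higher in all 4 Dox libraries than in any DMSO library, and was not called (edgeR adjusted p = 0.122).

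Compared with Dox in the control line, the Dox effect differed for 4 of 42 members in sgIGF2BP2, 1 higher and 3 lower, beside 6.97% of all genes (4.01% higher and 2.97% lower). In sgIGF2BP3 it differed for 7 of 42, all lower, beside 7.78% of all genes (4.53% higher and 3.25% lower). These 2 comparisons share the sgAAVS1 libraries. RAB8B differed by -0.34 (SE 0.084, edgeR adjusted p = 0.00578) in sgIGF2BP2 and by -0.44 (SE 0.084, edgeR adjusted p = 3.14e-04) in sgIGF2BP3. RAB21 differed by -0.31 and -0.26, and RAB2A by -0.22 and -0.26. In sgIGF2BP3 the list continued with RAB28, a RAB of cilia, at -0.37, RAB18 at -0.29, RAB29 at -0.28 and RAB14 at -0.16. In each of these the sgAAVS1 line had the higher Dox effect. RAB40B went the other way in sgIGF2BP2 (0.28, edgeR adjusted p = 0.0457). It lies at chr17:82654973-82698728, beyond SPOP, where the median of the 250 tested genes was -0.17 with Dox in sgAAVS1, and RAB40B itself was at -0.15 there. The part of this region's fall in the RAB40B difference was not tested, and the call was lost in 10 of 16 leave-one-out fits. Calls that held under every alternative were RAB21 and RAB8B in sgIGF2BP2 and RAB2A and RAB8B in sgIGF2BP3. In sgIGF2BP3, RAB14 lost its call in 11 of 16 leave-one-out fits and RAB28 in 10 of 16. The count in sgIGF2BP3 was 3 without its Dox library 4 and 4 without its DMSO library 4 or without sgAAVS1 Dox library 1. The count in sgIGF2BP2 was 2 without its DMSO library 3.

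**Figure D5:**
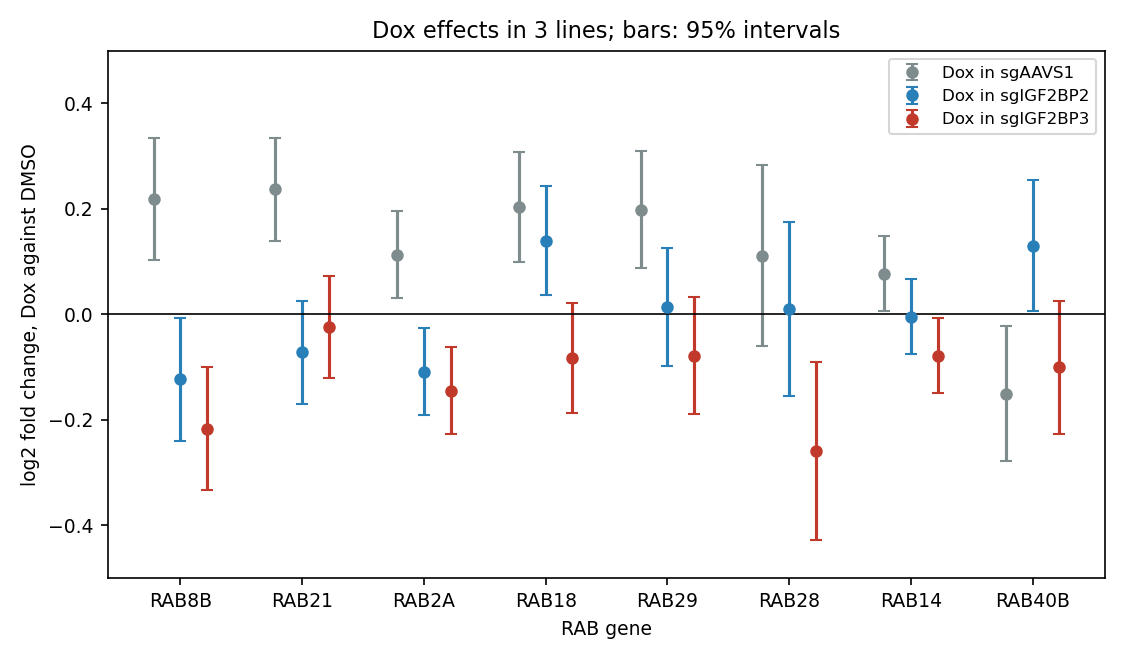
Log2 fold change with Dox against DMSO in the 3 lines for the 8 RAB genes whose Dox effect differed from that in sgAAVS1; points are fitted values and bars 95% intervals. RAB8B was at 0.22 in sgAAVS1, -0.12 in sgIGF2BP2 and -0.22 in sgIGF2BP3, and RAB40B was at -0.15, 0.13 and -0.10, where the difference between sgIGF2BP3 and sgAAVS1 was not called.

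RAB levels also moved between siControl and DMSO, in groups that differ in transfection and vehicle. In sgIGF2BP2, 6 of 42 members were higher and none lower, beside 18.4% of all genes (10.2% higher and 8.16% lower). In sgIGF2BP3, 3 were higher and 3 lower, beside 19.4% of all genes (10.9% higher and 8.54% lower). RAB15 went from 59.9 to 73.2 CPM in sgIGF2BP2 (0.29, edgeR adjusted p = 1.73e-06) and from 62.3 to 74.7 CPM in sgIGF2BP3 (0.26, edgeR adjusted p = 1.49e-05). RAB7A, the late endosome RAB, had 344 and 387 CPM in the first line and 338 and 391 CPM in the second. RAB5B was the other gene called higher in both, at 0.26 and 0.14. In sgIGF2BP2, RAB22A, RAB12 and RAB29 also rose, and in sgIGF2BP3, RAB13, RAB21 and RAB14 fell. With libraries left out in turn, RAB12 lost its call in 2 of 8 fits and RAB22A in 3 of 8 in sgIGF2BP2, and only 4 members were called there without DMSO library 2. In sgIGF2BP3 RAB5B lost its call in 2 of 8, RAB21 in 1 of 8, and RAB13 in 6 of 8 and in DESeq2 (-0.34 to -0.14 over the fits), and 4 members were called without DMSO library 3. These DMSO and siControl libraries are also the controls of the effects above.

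Over the 5 effects, 23 of the 42 members were called in none, 14 in 1 (RAB6A among them), 3 in 2 and 2 in 3. These are 54.8, 33.3, 7.14 and 4.76% of the members, beside 45.5, 36.0, 14.1 and 3.71% of all 11428 genes. The 2 were the RAB8 genes. RAB8A fell with Dox in sgAAVS1 and sgIGF2BP2 and after siIGF2BP2. RAB8B fell with Dox in sgIGF2BP3 and after siIGF2BP2 and rose with Dox in sgAAVS1. RAB7A, RAB10, RAB14 and RAB11A, all abundant, were among those called in none.

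The machinery that acts on RAB proteins gave 134 tested genes in 5 lists (8 of prenylation and recycling, 15 RAB6 regulators and effectors, 36 GEFs, 37 GAPs and 38 other effectors), of which 62 (46.3%) were called in none of the 5 effects, beside 45.5% of all genes. After siIGF2BP3 0 of the 15 RAB6 regulators and effectors were called, with a median of -0.0042. BICD2 was at -0.0042 as well. Among all 134 genes 4 (2.99%) were called, beside 2.34% of all genes: SYTL1, a RAB27 effector, rose by 0.43 (edgeR adjusted p = 0.0217), the GAPs TBC1D2B and USP6NL rose by 0.27 and 0.20, and RAB3IP fell by 0.19 (edgeR adjusted p = 0.00555). The calls of SYTL1, TBC1D2B and USP6NL were lost in some leave-one-out fits, USP6NL in 7 of 8.

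After siIGF2BP2, 17 of the 134 genes rose and 29 fell (34.3% called, beside 36.8% of all genes). Of the 15 RAB6 genes 2 rose and 3 fell. BICD2 went from 135 ± 3.07 to 82.9 ± 9.56 CPM (SD, n = 4 each), -0.70 on the log2 scale (SE 0.044, edgeR adjusted p = 5.34e-22). In the other groups it lay between 129 and 140 CPM. BICD1, its relative, fell by 0.33 and the golgin TMF1 by 0.14, while the golgin GCC2 (0.19) and the dynein subunit DYNLRB1 (0.18) rose; TMF1, GCC2 and DYNLRB1 lost the call in several leave-one-out fits. RAB6A itself was not called after siIGF2BP2. Among the 36 GEFs 7 rose and 7 fell, 38.9% of the list. TRAPPC6A, a subunit of the TRAPP exchange complexes, rose by 1.30 from a low level (1.04 to 2.61 CPM), DENND6B by 1.19 (2.71 to 6.23 CPM) and HPS1, of the RAB32 and RAB38 exchange factor, by 0.41. Among the 37 GAPs 3 rose and 7 fell (27.03%), with TBC1D4, a GAP for RABs that carry the glucose transporter, at -0.55 (edgeR adjusted p = 4.10e-12) and EVI5 at -0.41. Of the 38 other effectors 4 rose and 10 fell (36.8%). In the prenylation list RABAC1 rose by 0.32 and CHML fell by 0.24, the latter losing its call in 1 of 8 leave-one-out fits.

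With Dox, 16 of the 134 genes were called in sgAAVS1 (12 higher and 4 lower, 11.9%, beside 15.9% of all genes), 26 in sgIGF2BP2 (15 higher and 11 lower, 19.4%, beside 20.4%) and 2 in sgIGF2BP3 (both lower, 1.49%, beside 2.64%). In sgAAVS1 the RAB6 list had 2 rises, the golgin TMF1 (0.23) and RABGAP1 (0.15), a GAP for RAB6. The prenylation list had 1, CHM, the gene of RAB escort protein 1 (0.19). RABGAP1 and CHM each lost the call in 5 of 8 leave-one-out fits. The GEFs had 3 rises and 2 falls, the GAPs 3 and 2, and the effectors 3 and 0.

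In sgIGF2BP2 the RAB6 list had 2 falls, KIF20A, a kinesin that binds RAB6, at -0.27 and VPS52, of the GARP tether, at -0.20. The prenylation list, with 4 of 8 called, had RABAC1 (0.41) and RABGGTB (0.13), a subunit of the geranylgeranyl transferase, higher and RABIF (-0.26) and CHML (-0.19) lower. RABGGTB lost the call in 5 of 8 leave-one-out fits, CHML and VPS52 in 4 each and RABAC1 in 1. The GEFs had 3 rises and 3 falls, the GAPs 5 and 0, and the effectors 5 and 4. In sgIGF2BP3 both calls were GEFs, RAB3IP and CCZ1 (-0.37), named after their values were seen. The counts of CCZ1 may be split with its near-identical copy CCZ1B. Its call was not followed through the alternatives. Where CCZ1 lies relative to IGF2BP3, the gene the guides of this line were aimed at, was not looked at.

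RAB3IP was called lower in all 5 effects. It encodes Rabin8, the exchange factor for RAB8, and outside siIGF2BP3 it was picked after its values were seen. It had 87.5, 86.7, 92.7 and 98.6 CPM with DMSO in sgAAVS1 and 63.8, 65.7, 63.4 and 69.3 CPM with Dox. The Dox libraries were lower than the DMSO libraries in every line without overlap. The log2 changes with Dox were -0.48 (SE 0.047) in sgAAVS1, -0.45 (SE 0.046) in sgIGF2BP2 and -0.23 (SE 0.046) in sgIGF2BP3, with edgeR adjusted p = 3.78e-12, 5.56e-12 and 0.00104. After siIGF2BP2 RAB3IP fell by 0.30 (SE 0.043, edgeR adjusted p = 6.86e-08), from 131 to 107 CPM. After siIGF2BP3 it had 107, 110, 109 and 113 CPM, against 128, 122, 121 and 129 CPM in siControl. The Dox effect in sgIGF2BP3 was weaker than in sgAAVS1 by 0.25 (SE 0.066, edgeR adjusted p = 0.00952). In siControl libraries RAB3IP was higher than with DMSO, by 0.41 and 0.36. Of all 11428 genes tested 10 were called in all 5 effects, and RAB3IP was the only 1 lower in all 5 (0.00875%). The control line, with guides against AAVS1, was among those in which it fell.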

How the data were processed

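Poly(A) RNA of 40 SLAMseq libraries was sequenced and, per the submitters' processing notes, handled with bcl2fastq 2.20.0.422 and STAR 2.7.5c on hg38. The authors deposited raw counts per Ensembl gene. The counting tool, its annotation and its strand setting are not given in the sources used here. Among the members, 7 share exon bases with another gene on the opposite strand and 8 on the same strand. All 40 columns matched a sample (0 unmapped), and 19847 of 19962 identifiers had a GENCODE 29 name.

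Counts were tested with edgeR 4.0.16 (R 4.3.3): genes kept by filterByExpr, TMM scaling (factors 0.978 to 1.03), 1 coefficient per group over all 40 libraries, quasi-likelihood F tests, Benjamini-Hochberg adjustment over 11428 genes and a call at adjusted p under 0.05. SE is the log2 change divided by the root of F. CPM use TMM-scaled library sizes, and CPM per kb divide by the merged exon length. Variation between libraries beyond counting noise (edgeR's common BCV) was 3.79%, and it may be technical. Members, lists and tests were chosen with earlier results of these data known.

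Values were named by rule: RAB6A and its relatives; every called member, or with more than 12 calls the 6 greatest rises and falls; the 5 highest levels; members next to the count minimum; and of the regulators, called genes of the RAB6 and prenylation lists and up to 3 rises and 3 falls per siRNA effect. RAB1A, RAB8A and RAB35 after siIGF2BP2, uncalled members and genes called between siControl and DMSO fall outside it. So do CCZ1 with Dox in sgIGF2BP3 and RAB3IP outside siIGF2BP3. All of these were chosen after their values were seen. A gene of the prenylation list is not reported here. Alternatives were RLE size factors, DESeq2 1.42.0, no filter, only the groups compared, a replicate block and each library left out. On simulated counts for siIGF2BP3 (11351 genes), 88.7% of 106 genes changed 1.5-fold and 93.6% of 94 changed 2-fold were called, with 11 false calls. The simulated spread beyond counting noise was the same for every gene. Changes under 1.5-fold were not simulated, so these shares do not cover them. No 2 libraries of a group agreed within sampling noise.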

Additional observations from a re-analysis of the deposited data

Results flagged for a closer look

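Of 250 sets of 4 libraries, 15 had 1 library standing apart by Dixon's ratio at the 95% level, and chance alone flags about 1 in 20. High libraries were RAB6A with 90.9 CPM (sgIGF2BP3 DMSO, library 4; the others 85.0 to 85.7), RAB15 with 63.1 CPM (sgIGF2BP2 DMSO, library 2), RAB22A with 67.1 CPM (sgAAVS1 DMSO, library 4), RAB28 with 17.5 CPM (sgIGF2BP2 siControl, library 4), RAB5A with 19.7 CPM (siIGF2BP2, library 2) and RAB18 with 79.7 CPM (siIGF2BP3, library 2). With Dox in sgAAVS1 they were RAB1B with 426 CPM (library 3), RAB21 with 78.9 CPM (library 1) and RAB2B with 16.0 CPM (library 4). Low libraries were RAB22A with 53.5 CPM and RAB26 with 5.75 CPM (both sgIGF2BP2 DMSO, library 2), RAB7A with 376.5 CPM (sgIGF2BP2 siControl, library 4), RAB8A with 105 CPM (sgIGF2BP2 Dox, library 2), and RAB15 with 66.7 CPM and RAB21 with 62.0 CPM (both siIGF2BP3, library 3).

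Differences between effects, tested directly, flagged 23 values on the log2 scale. Dox in sgIGF2BP2 less Dox in sgAAVS1 gave RAB8B -0.34, RAB21 -0.31, RAB2A -0.22 and RAB40B 0.28. Dox in sgIGF2BP3 less Dox in sgAAVS1 gave RAB8B -0.44, RAB28 -0.37, RAB18 -0.29, RAB29 -0.28, RAB21 -0.26, RAB2A -0.26 and RAB14 -0.16. For siIGF2BP3 less siIGF2BP2 the values were RAB6A -1.26, RAB26 -1.04, RAB36 -0.37, RAB11B -0.18, RAB1B -0.16, RAB8A 0.18, RAB3D 0.22, RAB21 0.23, RAB22A 0.25, RAB8B 0.52 and RAB5A 0.53. For RAB6A the siIGF2BP3 effect less the Dox effect in the same line was -1.30. Both RAB6A values are descriptions, since the gene was chosen with them known.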

How the results depend on the processing

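RAB6A after siIGF2BP3 stayed between -1.40 and -1.30 with each library left out. The number of members called changed by over 1.5 times in these cases. With Dox in sgIGF2BP2 it was 4 without the filter, 0 with only the groups compared and 0 to 3 with libraries left out (main 2). After siIGF2BP3 it was 2 without the filter, 3 with only the groups compared and 1 to 2 with libraries left out (main 1, which is RAB6A). Leaving out libraries gave 4 to 9 for Dox in sgAAVS1 (main 7), 0 to 1 for Dox in sgIGF2BP3 (main 2), 2 to 4 for Dox in sgIGF2BP2 less sgAAVS1 (main 4) and 3 to 8 for Dox in sgIGF2BP3 less sgAAVS1 (main 7). Calls kept in every alternative numbered 10 of 14 after siIGF2BP2, 7 of 11 for the difference of the siRNA effects, 2 of 7 with Dox in sgAAVS1 and 0 of 2 in each of the other lines. The difference of RAB3IP's Dox effects in sgIGF2BP2 and sgAAVS1, never called, ran from -0.0089 (without sgAAVS1 DMSO library 4) to 0.061 with libraries left out, and that between siIGF2BP3 and Dox in sgIGF2BP3 from -4.1e-04 (without sgIGF2BP3 DMSO library 4) to 0.070. The causes were not tested.

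In the 5 effects, same-numbered libraries correlated between -0.0896 and 0.0393 and other pairs between -0.0854 and 0.0835, so no pairing was seen there. With the replicate block 8, 3, 2, 14 and 1 members were called in the 5 effects (Dox in sgAAVS1, sgIGF2BP2 and sgIGF2BP3, siIGF2BP2, siIGF2BP3), and RAB6A was at -1.34 after siIGF2BP3. Between siControl and DMSO in sgIGF2BP2, 8 of 8 libraries correlated best with their own number, and 4 of 8 in sgIGF2BP3. In sgIGF2BP2 the same-number correlations were 0.0437 to 0.0924, against at most 0.0184 for other pairs. This is a hint from the data only, and whether the numbers pair those samples is not settled. Depth limited the members with few counts: with Dox in sgAAVS1 the SE was 0.27 for RAB30 and 0.22 for RAB9B, against a median of 0.057 over the members.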
